A study of Mus musculus with 12 samples.

Results

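The 64 genes described here were heavy chain variable genes, the Ighv segments that encode the antigen-binding end of antibody heavy chains. They were chosen by name and by depth: a gene whose GENCODE M21 symbol starts with Ighv and that had 5 or more counts summed over 12 tumour libraries was a member. The files listed 185 Ighv genes among 54532 gene identifiers. Of these, 95 had no count in any library, 26 had 1 to 4 counts, and the 64 members held 2493 counts in all. The members lay on chromosome 12, minus strand (GRCm38), and all 64 were annotated as V genes and not as pseudogenes. None of the 70 Ighv pseudogenes in the files reached 5 counts, and 1 of them had a single count.

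RNA was sequenced from 12 malignant peripheral nerve sheath tumours, sarcomas of the nerve sheath, of mice labelled C57B/6 and WT. All 12 tumours were started with adenovirus carrying a Cas9 system aimed at Nf1 and at Cdk2na, as the labels write what is taken here to be Cdkn2a, so vehicle tumours carried this too. Terminal combination tumours (n = 4, harvested at the terminal time point) and regressing tumours (n = 4, harvested during regression) came from mice dosed daily by gavage with palbociclib, a CDK4/6 inhibitor, at 100 mg/kg and mirdametinib, a MEK inhibitor, at 1 mg/kg, and vehicle tumours (n = 4, terminal harvest) from mice given the vehicle. The labels give no age, no site of injection and no statement that each tumour is from its own mouse, so p-values below measure the spread between these samples, and between regressing and vehicle tumours drug and harvest stage cannot be told apart.

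A B cell assembles its heavy chain gene by joining 1 V, 1 D and 1 J segment, and the joined V segment is then transcribed as the first coding part of the heavy chain mRNA, upstream of a constant region such as Ighm or Ighg2c. A plasma cell, the antibody-secreting end stage of the B lineage, makes this mRNA in large amounts. Each B cell clone uses 1 productive V segment, so the set of V genes in the RNA of a tissue reflects which clones it holds and how much mRNA each makes. The number after Ighv is the family, a group of V genes of similar sequence, and Ighv1, also called J558, is the largest in the mouse.

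The libraries held 13194699 to 22639625 counted reads, so that no count for a gene still allowed 0.128 to 0.231 CPM in a library (the usual depth-adjusted counts, here with TMM-adjusted library size) from 3 counts, for counting error only. Every pair of libraries differed by far more than sampling noise, with a chi-square of 52.6 or more per degree of freedom. Nerve sheath and Schwann lineage markers (9 of 9 found) summed to 634 to 1272 CPM in terminal combination tumours, 423 to 694 CPM in regressing tumours and 571 to 1297 CPM in vehicle tumours. Among them Sox10, the transcription factor that defines the lineage, had only 0 to 43 counts per tumour and no count in 1 terminal combination and 2 vehicle tumours. Titles of terminal combination replicate 1, regressing replicate 1 and vehicle replicates 1 and 2 end in FFT, which the labels do not explain.

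The members most counted in the 6 tumours with 50 or more Ighv counts are shown first, because they differ from tumour to tumour and carry most of what follows. Each line is the last 180 bases of the V exon, 5′ to 3′ on the coding (minus) strand, from the GENCODE M21 transcripts on GRCm38, and the capitals mark the TGT codon of the conserved cysteine that closes the V segment's framework. The positions are chr12:114176438-114176617 for Ighv14-4 (first in terminal combination replicate 4), chr12:113879096-113879275 for Ighv2-9, chr12:115158403-115158582 for Ighv1-53, chr12:114612243-114612422 for Ighv1-11 and chr12:114140692-114140871 for Ighv9-3 (first in regressing replicates 1, 2, 3 and 4 in that order), and chr12:114657353-114657532 for Ighv1-15 and chr12:114788372-114788551 for Ighv1-26 (level with each other in vehicle replicate 4). All 7 stretches are coding. They are reference sequence, and mutations acquired by B cells are not visible in counts.
Ighv14-4: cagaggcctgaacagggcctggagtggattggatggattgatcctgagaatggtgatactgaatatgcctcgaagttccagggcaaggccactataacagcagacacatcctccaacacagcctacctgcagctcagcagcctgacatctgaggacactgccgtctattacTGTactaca
Ighv2-9: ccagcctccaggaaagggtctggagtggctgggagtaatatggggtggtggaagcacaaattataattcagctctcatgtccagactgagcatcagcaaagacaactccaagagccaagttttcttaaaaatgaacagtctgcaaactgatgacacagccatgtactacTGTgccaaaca
Ighv1-53: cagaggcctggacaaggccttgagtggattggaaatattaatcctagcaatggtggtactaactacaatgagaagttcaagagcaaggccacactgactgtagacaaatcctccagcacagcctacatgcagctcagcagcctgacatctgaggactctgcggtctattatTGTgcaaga
Ighv1-11: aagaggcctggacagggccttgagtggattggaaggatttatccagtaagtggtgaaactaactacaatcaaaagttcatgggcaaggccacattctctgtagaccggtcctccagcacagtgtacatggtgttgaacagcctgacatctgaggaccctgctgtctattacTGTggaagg
Ighv9-3: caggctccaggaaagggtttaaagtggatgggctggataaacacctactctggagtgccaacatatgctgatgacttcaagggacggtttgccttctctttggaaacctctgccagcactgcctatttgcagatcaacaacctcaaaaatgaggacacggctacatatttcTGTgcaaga
Ighv1-15: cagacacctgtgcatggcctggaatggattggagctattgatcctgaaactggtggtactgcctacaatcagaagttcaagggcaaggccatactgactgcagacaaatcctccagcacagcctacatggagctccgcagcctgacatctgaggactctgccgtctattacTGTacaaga
Ighv1-26: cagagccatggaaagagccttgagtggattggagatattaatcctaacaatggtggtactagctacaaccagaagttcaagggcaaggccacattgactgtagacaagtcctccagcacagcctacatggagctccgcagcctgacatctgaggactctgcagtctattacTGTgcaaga

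V genes of a family resemble each other closely, which limits how far counts can be assigned to a single one. The V exons of the members were 301 to 315 bases long, and the median identity of a member to its nearest annotated Ighv relative was 96.1%, with a range of 74.4% to 100%. Identity was 95% or more for 40 members. For 60 members at least 1 window of 50 bases was found in another Ighv gene as well, and 4 members, Ighv1-9, Ighv1-11, Ighv5-16 and Ighv15-2, had no such window. The 2 pairs that follow show the case for the most counted member, Ighv1-53, with Ighv1-72, and for Ighv9-3 with Ighv9-2. Each line is the last 120 bases of the V exon, read as above, and the capitals mark the 2 bases at which the members of a pair differ. Their positions are chr12:115158403-115158522 for Ighv1-53, chr12:115757984-115758103 for Ighv1-72, chr12:114140692-114140811 for Ighv9-3 and chr12:114109001-114109120 for Ighv9-2.
Ighv1-53: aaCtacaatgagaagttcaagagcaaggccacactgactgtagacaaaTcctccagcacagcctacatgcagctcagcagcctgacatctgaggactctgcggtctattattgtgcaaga
Ighv1-72: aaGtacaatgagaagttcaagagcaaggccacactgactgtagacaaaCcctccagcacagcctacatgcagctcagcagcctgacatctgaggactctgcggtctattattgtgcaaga
Ighv9-3: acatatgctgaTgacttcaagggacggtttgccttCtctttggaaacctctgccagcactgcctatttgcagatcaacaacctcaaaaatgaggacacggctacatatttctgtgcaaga
Ighv9-2: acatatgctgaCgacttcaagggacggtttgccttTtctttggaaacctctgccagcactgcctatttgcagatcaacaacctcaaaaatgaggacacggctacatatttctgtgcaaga
Over the whole V exon, Ighv1-53 and Ighv1-72 were 96.1% identical, and 55.5% of the 50-base windows of Ighv1-53 were also found in another Ighv gene. For Ighv9-3 these values were 94.4% identity to Ighv9-2 and 27.3% of windows. Every window of Ighv1-72 was shared, its nearest relative being Ighv1-62-3 at 99.0%. How the authors' counting treated reads that match several V genes is not given in the sources used here, so counts of single members are uncertain where such a relative exists.

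Ighv transcripts were most abundant in the regressing tumours, with a wide spread within each group. The members together had 34, 1, 49 and 57 counts in terminal combination replicates 1 to 4, 373, 920, 123 and 716 counts in regressing replicates 1 to 4 and 24, 3, 12 and 181 counts in vehicle replicates 1 to 4. The regressing tumours thus held 2132 of the 2493 counts (85.5%), against 141 (5.66%) in terminal combination and 220 (8.82%) in vehicle tumours. In depth-adjusted units the summed level was 1.74, 0.0596, 2.40 and 3.25 CPM in terminal combination tumours, 23.8, 53.4, 5.46 and 55.2 CPM in regressing tumours and 1.03, 0.214, 0.610 and 10.6 CPM in vehicle tumours. All 4 regressing tumours stood above all 4 terminal combination tumours. They did not all stand above vehicle, since vehicle replicate 4 exceeded regressing replicate 3. In bulk RNA, fewer cells of the B lineage and less heavy chain RNA per cell cannot be told apart.

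**Figure D1:**
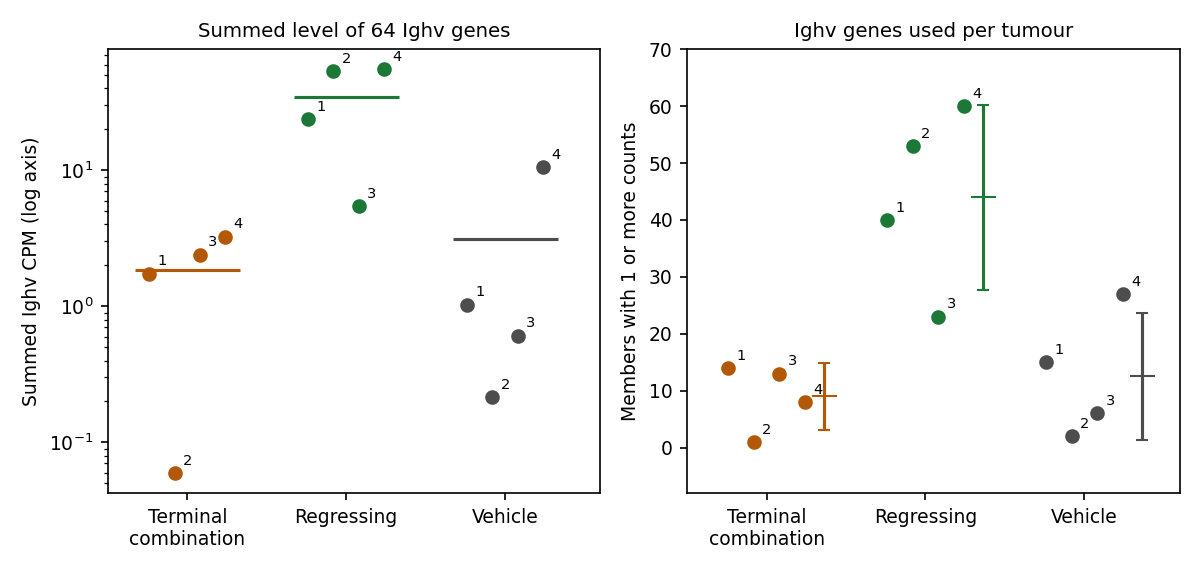
Summed level of the 64 Ighv genes (left, CPM, log axis, bar at the group mean) and number of members with at least 1 count (right, mean and SD beside the points) in each tumour, with the replicate number beside its point. The regressing tumours span 5.46 to 55.2 CPM and 23 to 60 members, above every terminal combination tumour in both panels, while vehicle replicate 4 (10.6 CPM, 27 members) lies above regressing replicate 3.

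The summed level averaged 1.86 ± 1.35 CPM in terminal combination, 34.5 ± 24.1 CPM in regressing tumours and 3.10 ± 4.98 CPM in vehicle tumours (SD, n = 4 each). On the log2(CPM + 0.5) scale, the difference was 0.01 between terminal combination and vehicle tumours (exact two-sided permutation p = 1), 3.75 between regressing and vehicle tumours (exact permutation p = 0.0571) and -3.74 between terminal combination and regressing tumours (exact permutation p = 0.0286). The last is the smallest p that 4 against 4 tumours allow. After Benjamini-Hochberg adjustment over 18 tests (6 measures in 3 contrasts) the last 2 stood at 0.257 each. Most of the 18 tests, those of composition, cannot go below 0.4. No difference could therefore have passed an adjusted 0.05 whatever the data, and nothing is read from that failure. With the members summed into 1 row of the edgeR fit, a test added after the data were seen, the log2 difference was -0.73 (SE 1.15, adjusted p = 0.943) for terminal combination against vehicle, 3.47 (SE 1.22, adjusted p = 0.286) in regressing tumours against vehicle and -4.20 (SE 1.27, adjusted p = 0.691) in terminal combination against regressing tumours, which passed in no contrast either. Without vehicle replicate 4 the first of these turned to 1.54 and the second became 5.76. The count minimum can favour the regressing tumours, since 61 members reached it within them and 23 outside them. Summing every Ighv gene with any count, which drops the minimum, gave a log2(CPM + 0.5) difference of 3.65 between regressing and vehicle tumours (exact permutation p = 0.0571). Between terminal combination and regressing tumours that sum gave -3.77 (exact permutation p = 0.0286).

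The regressing tumours stood high with either title ending. Among libraries with titles ending in FFT, the level was 1.74 CPM in the terminal combination tumour, 23.8 CPM in the regressing tumour and 1.03 and 0.214 CPM in the vehicle tumours. Among the others it was 0.0596, 2.40 and 3.25 CPM in terminal combination, 53.4, 5.46 and 55.2 CPM in regressing tumours and 0.610 and 10.6 CPM in vehicle tumours. Regressing tumours stood above terminal combination tumours within both sets, and above vehicle in the first but not in the second, where vehicle replicate 4 overlapped them.

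The number of V genes used was also highest in the regressing tumours. At least 1 count fell on 14, 1, 13 and 8 members in terminal combination replicates 1 to 4, on 40, 53, 23 and 60 members in regressing replicates 1 to 4 and on 15, 2, 6 and 27 members in vehicle replicates 1 to 4. The mean was 9 ± 5.94 members in terminal combination, 44 ± 16.3 in regressing and 12.5 ± 11.1 in vehicle tumours (SD, n = 4 each). Every regressing tumour used more members than any terminal combination tumour, a difference of -35 for terminal combination against regressing (exact permutation p = 0.0286, adjusted 0.257). Regressing replicate 3, with 23 members, was below vehicle replicate 4, and the difference of 31.5 for regressing against vehicle had an exact permutation p of 0.0571 (adjusted 0.257). The difference of -3.5 for terminal combination against vehicle had an exact permutation p of 0.657. These numbers depend on the count minimum, which most members reached within the regressing tumours. Counting every Ighv gene with any count instead, regressing tumours exceeded vehicle tumours by 37.75 genes on average (exact permutation p = 0.0571). Terminal combination tumours then differed from regressing tumours by -42.25 genes (exact permutation p = 0.0286).

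At an equal number of Ighv counts the tumours were closer together. In 50 counts drawn without replacement, the expected number of members seen was 7.88 in terminal combination replicate 4, 18.8, 20.3, 15.4 and 25.2 in regressing replicates 1 to 4 and 16.5 in vehicle replicate 4. The vehicle tumour thus fell inside the range of the regressing tumours, while the terminal combination tumour lay below it. In 20 counts, which 3 more tumours reach, the values were 10.6, 8.0 and 7.03 in terminal combination replicates 1, 3 and 4, 11.5, 12.1, 9.80 and 13.4 in regressing replicates 1 to 4 and 13.3 and 10.04 in vehicle replicates 1 and 4. Here terminal combination replicate 1 stood inside the regressing range too. Only 1 terminal combination and 1 vehicle tumour had 50 counts, so for measures of composition an exact permutation test cannot go below 0.4 against the regressing tumours (1 between the single tumours), and they are given as descriptions.

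**Figure D2:**
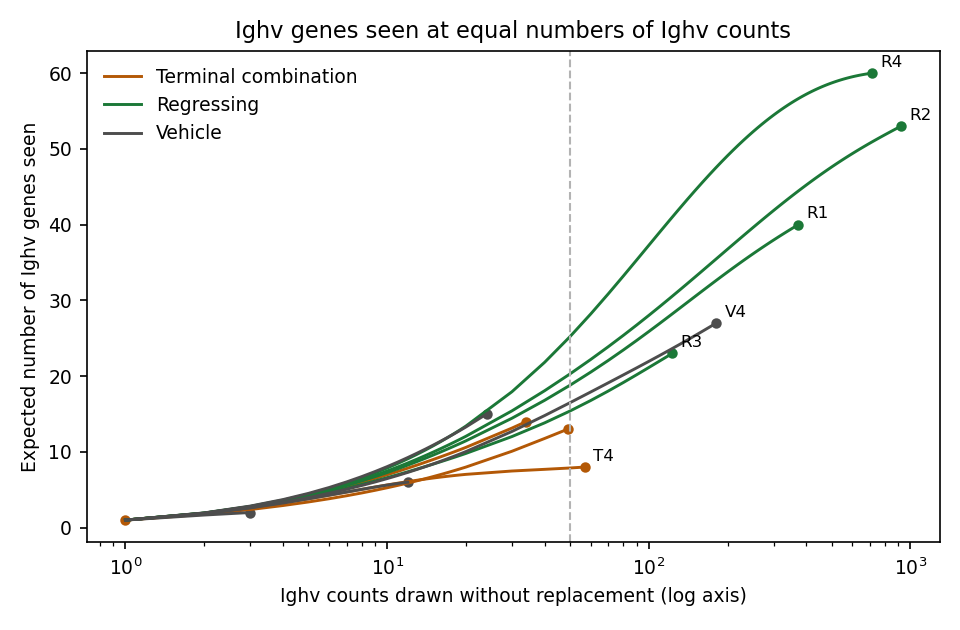
Expected number of different Ighv members seen (vertical axis) in a given number of Ighv counts drawn without replacement (horizontal log axis), 1 curve per tumour ending at its full count, with the dashed line at 50 counts. At the line regressing replicates 1 to 4 stand at 18.8, 20.3, 15.4 and 25.2 members, vehicle replicate 4 at 16.5 and terminal combination replicate 4 at 7.88, whose curve is nearly flat.

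In the regressing tumours a different gene led each time, at nearly the same share. Regressing replicate 1 was led by Ighv2-9 with 74 counts (19.8% of its Ighv counts, 95% Wilson interval 16.1 to 24.2%). Regressing replicate 2 was led by Ighv1-53 with 189 counts (20.5%, 18.1 to 23.3%). Regressing replicate 3 was led by Ighv1-11 with 23 counts (18.7%, 12.8 to 26.5%), with Ighv1-53 next at 22 counts, so these 2 cannot be ordered. Regressing replicate 4 was led by Ighv9-3 with 148 counts (20.7%, 17.9 to 23.8%). The share of the leading gene averaged 19.9 ± 0.903% (SD, n = 4), and the intervals, which cover counting error only because reads carry no molecular identifiers, overlap in all 4. Ighv1-53 was first or second in all 4.

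Outside the regressing group the leading genes were mostly others. Terminal combination replicate 1 was led by Ighv1-55 (7 of 34 counts), terminal combination replicate 3 by Ighv5-9 (22 of 49 counts, 44.9%, 31.9 to 58.7%) and terminal combination replicate 4 by Ighv14-4 (12 of 57 counts, 21.1%, 12.5 to 33.3%), with Ighv1-64 at 11 counts behind it. The single count of terminal combination replicate 2 fell on Ighv2-9. In vehicle replicate 4, Ighv1-15 and Ighv1-26 had 43 counts each (23.8%, 18.1 to 30.5%). The leaders of vehicle replicates 1, 2 and 3, Ighv1-26, Ighv5-12 and Ighv5-4, had 4, 2 and 4 counts, too few to rank. The share of Ighv5-9 in terminal combination replicate 3 was the highest of any leading gene in a tumour with 20 or more Ighv counts, and its interval lay above those of regressing replicates 1 to 4.

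The chance that 2 Ighv counts of a tumour came from different members, the unbiased Simpson index, was 86.2% in terminal combination replicate 4, 91.6%, 92.2%, 89.2% and 93.2% in regressing replicates 1 to 4 and 87.3% in vehicle replicate 4. As an effective number of equally used genes this was 7.25 in the terminal combination tumour, 11.96, 12.8, 9.29 and 14.7 in the regressing tumours and 7.88 in the vehicle tumour. In the tumours with 20 to 49 counts the index was 91.1% and 76.8% in terminal combination replicates 1 and 3 (11.2 and 4.31 effective genes) and 94.9% in vehicle replicate 1 (19.7 effective genes, on 24 counts). All 4 regressing tumours stood above the single tumours of the other groups with 50 or more counts, while vehicle replicate 1 stood above every regressing tumour and terminal combination replicate 1 above regressing replicate 3. The test covers the tumours with 50 or more counts (exact permutation p = 0.4 in both contrasts, the smallest possible, adjusted 0.8). It took 3 members to reach 50% of the counts in terminal combination replicate 4, 5, 5, 3 and 8 members in regressing replicates 1 to 4 and 3 members in vehicle replicate 4. The 10 most counted members of each regressing tumour held 77.2%, 72.5%, 86.2% and 56.4% of its Ighv counts, so replicate 4 had the most even use.

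**Figure D3:**
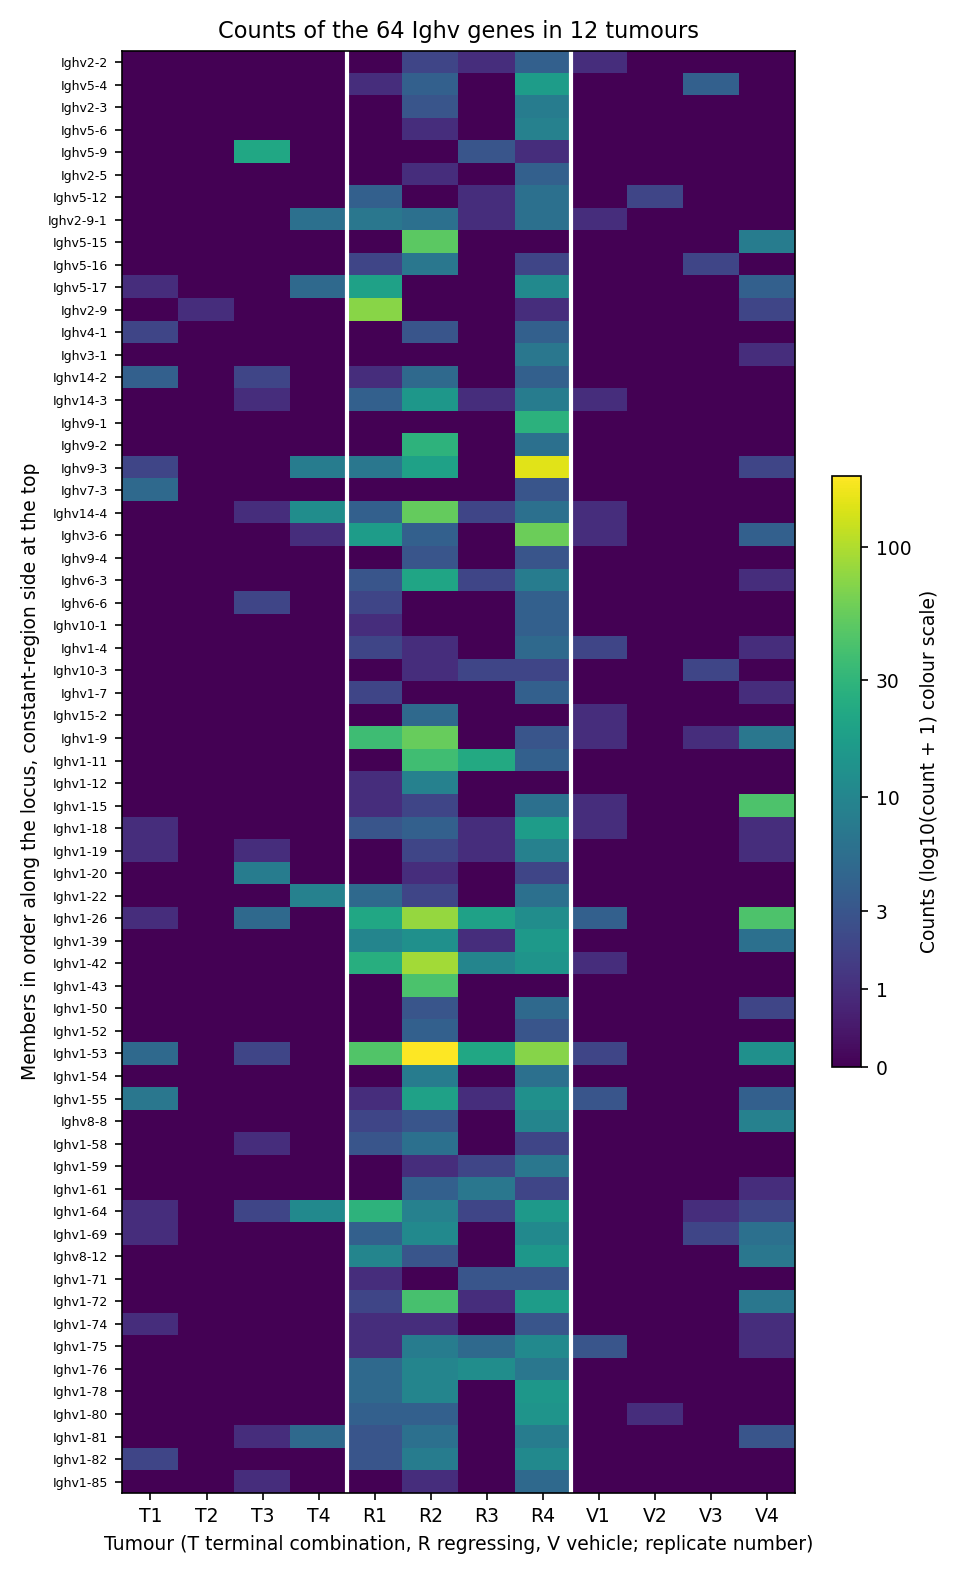
Counts of the 64 members (rows, in order along the locus with the side of the constant regions at the top) in the 12 tumours (columns T, R and V for terminal combination, regressing and vehicle, with the replicate number), on a log10(count + 1) colour scale. The brightest cells are Ighv1-53 in regressing replicate 2 (189 counts) and Ighv9-3 in regressing replicate 4 (148 counts), and vehicle replicate 4 has 43 counts each on Ighv1-15 and Ighv1-26.

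Members differed in how widely they were shared. Of the 64, 14 had counts in all 4 regressing tumours, 26 in 3, 18 in 2 and 6 in 1. All 64 had a count in some regressing tumour, 26 in some terminal combination tumour and 38 in some vehicle tumour, and 16 had counts in regressing tumours alone. The count minimum was reached in the regressing tumours by most members, and only 23 had 5 or more counts outside them, so these numbers follow in part from how members were chosen. No member was seen in all 12 tumours, the widest being Ighv1-64 in 9. For 35 members, more than 50% of the counts came from 1 tumour. The 10 most counted members held 54.2% of all counts, and the median member had 24.

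Ighv1-53 was the most counted member, with 351 counts. It had 5, 0, 2 and 0 counts in terminal combination replicates 1 to 4, 45, 189, 22 and 73 counts in regressing replicates 1 to 4 and 2, 0, 0 and 13 counts in vehicle replicates 1 to 4, with means of 0.0884 ± 0.121 CPM in terminal combination tumours, 5.11 ± 4.35 CPM in regressing tumours and 0.211 ± 0.367 CPM in vehicle tumours (SD, n = 4 each). The lowest regressing tumour (0.976 CPM) stood above the highest terminal combination tumour (0.256 CPM) and the highest vehicle tumour (0.759 CPM). Ighv1-53 and Ighv1-26 were the only members to pass edgeR's filter on low counts. Outside the regressing tumours only vehicle replicate 4 had 10 or more counts of either, so both entered the tests through the regressing group. In the quasi-likelihood test across 15650 genes the log2 difference of Ighv1-53 was -1.13 (SE 1.38, adjusted p = 0.927) for terminal combination against vehicle, 4.57 (SE 1.29, adjusted p = 0.251) in regressing tumours against vehicle and -5.70 (SE 1.39, adjusted p = 0.692) in terminal combination against regressing tumours. DESeq2 called it in the last 2, with 4.62 (adjusted p = 0.0219) and -5.83 (adjusted p = 0.0145), so the call rests on the tool. As the gene was tested only because of its counts in the regressing tumours, nothing is read from the call. Leaving out vehicle replicate 4 turned the first difference to 1.29 and raised the second to 7.01 in edgeR.

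Ighv1-26, the next most counted, overlapped between regressing and vehicle tumours. It had 1, 0, 5 and 0 counts in terminal combination tumours, 22, 81, 19 and 12 counts in regressing tumours and 4, 0, 0 and 43 counts in vehicle tumours, with vehicle replicate 4 (2.51 CPM) above 3 of the regressing tumours. Its edgeR log2 differences were -2.99 (SE 1.56, adjusted p = 0.834) for terminal combination against vehicle, 1.55 (SE 1.31, adjusted p = 0.639) for regressing against vehicle and -4.55 (SE 1.58, adjusted p = 0.692) in terminal combination against regressing tumours, and DESeq2 did not call it. Without vehicle replicate 4 the first became 0.23 and the second 4.80. Ighv1-42 had no count in the terminal combination tumours. It had 26, 90, 10 and 14 counts in the regressing tumours and 1, 0, 0 and 0 counts in the vehicle tumours. Its CPM in regressing tumours lay wholly above the others, as for 3.31% of all genes against vehicle and 1.55% against terminal combination. With 140 of its 141 counts there, it met the count minimum through the regressing tumours, so nothing is read from this separation. Ighv1-43, a near relative of Ighv1-42 and 97.0% identical to it, had 42 counts, all in regressing replicate 2.

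Other abundant members came mostly from a single tumour. Ighv2-9 had 74 of its 78 counts in regressing replicate 1 and was the only member with 50 or more counts of which 90% or more lay in 1 tumour. Ighv9-3 had 148 of 186 counts in regressing replicate 4, with 2, 0, 0 and 8 counts in the terminal combination tumours, 7, 19 and 0 counts in the other regressing tumours and 2 counts in vehicle replicate 4. Ighv9-1, of the same family, had 28 counts, all in regressing replicate 4, while Ighv9-2 had 29 of its 35 counts in regressing replicate 2. Ighv3-6 had 57 of its 84 counts in regressing replicate 4 and 17 in regressing replicate 1.

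The remaining members among the 10 most counted were Ighv1-9, Ighv14-4, Ighv1-64 and Ighv1-72. Ighv1-9, which shares no 50-base window with another Ighv gene, had no count in terminal combination tumours, 36, 55, 0 and 3 counts in regressing tumours and 1, 0, 1 and 7 counts in vehicle tumours. Ighv14-4 had 0, 0, 1 and 12 counts in terminal combination tumours, 4, 54, 2 and 6 counts in regressing tumours and 1, 0, 0 and 0 counts in vehicle tumours. Ighv1-64 had 1, 0, 2 and 11 counts in terminal combination tumours, 29, 9, 2 and 16 counts in regressing tumours and 0, 0, 1 and 2 counts in vehicle tumours. In both of these genes terminal combination replicate 4 overlapped the regressing tumours. Ighv1-72 had no count in terminal combination tumours, 2, 40, 1 and 17 counts in regressing tumours and 0, 0, 0 and 7 counts in vehicle tumours, and as shown above it shares long identical stretches with Ighv1-53.

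By edgeR no gene of 15650 passed an adjusted p of 0.05 in any contrast (0% called each), and neither of the 2 members tested did. At an unadjusted p under 0.05, 5.94% of genes and 0 of the 2 members passed for terminal combination against vehicle, 12.7% and 1 for regressing against vehicle, then 7.02% and 2 for terminal combination against regressing. DESeq2 called 0.0895%, 3.09% and 0.326% of the genes and 0, 1 and 1 members in the same order, the member being Ighv1-53. Without the filter all 64 members entered among 26933 genes and none passed the adjusted threshold, with 2, 33 and 39 members at an unadjusted p under 0.05 against 4.95%, 9.46% and 6% of all genes. Since most members met the count minimum through the regressing tumours, nothing is read from the counts of those tests.

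Over all 22320 genes with 5 or more counts, CPM of the regressing tumours lay wholly above those of vehicle tumours for 3.31% of genes and for 7 members, namely Ighv1-42, Ighv1-53, Ighv1-76, Ighv14-3, Ighv14-4, Ighv2-9-1 and Ighv6-3. CPM of the terminal combination tumours lay wholly below those of the regressing tumours for 1.55% of genes and for 8 members, Ighv1-26, Ighv1-39, Ighv1-42, Ighv1-53, Ighv1-72, Ighv1-75, Ighv1-76 and Ighv6-3. Ighv1-42, Ighv1-53, Ighv1-76 and Ighv6-3 are in both sets. Ighv1-76 had 5, 10, 12 and 7 counts in the regressing tumours and none in the other 8 tumours, the most even profile among these. Several separations rest on single reads. Against vehicle, the closest tumours had 1 count each for Ighv14-3 and Ighv2-9-1, and 2 against 1 for Ighv14-4 and Ighv6-3. Against terminal combination, Ighv1-39, Ighv1-72 and Ighv1-75 had 1 count in their lowest regressing tumour against 0. No member was wholly higher in terminal combination than in vehicle (1.14% of genes) or wholly lower (1.04%), wholly lower in regressing than in vehicle (3.06%), or wholly higher in terminal combination than in regressing tumours (1.85%). The choice of members favours these directions, since 61 members reached 5 counts within the regressing tumours and 23 outside them, so nothing is read from these counts.

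The members fell into 12 families, and Ighv1 held 34 members and 1568 counts (62.9%). Its share of a tumour's Ighv counts was 58.8%, 42.9% and 43.9% in terminal combination replicates 1, 3 and 4, 57.6%, 74.0%, 89.4% and 46.1% in regressing replicates 1 to 4 and 75.0% and 79.0% in vehicle replicates 1 and 4. The regressing tumours alone covered most of this range. Among the tumours with 20 or more counts, 4 had a family other than Ighv1 that stood high, a different one each time: Ighv5 with 44.9% in terminal combination replicate 3, Ighv14 with 21.1% in terminal combination replicate 4, Ighv2 with 21.7% in regressing replicate 1 and Ighv9 with 25.8% in regressing replicate 4. Each of these is mainly the leading gene of that tumour named above. The number of families with a count was 6, 1, 4 and 6 in terminal combination, 9, 11, 6 and 11 in regressing and 5, 2, 3 and 7 in vehicle tumours. Thinned to 50 counts it was 5.88 in terminal combination replicate 4, 6.74, 6.03, 4.62 and 7.73 in the regressing tumours and 5.01 in vehicle replicate 4, so both single tumours stood inside the regressing range (exact permutation p = 0.8 for each against regressing).

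**Figure D4:**
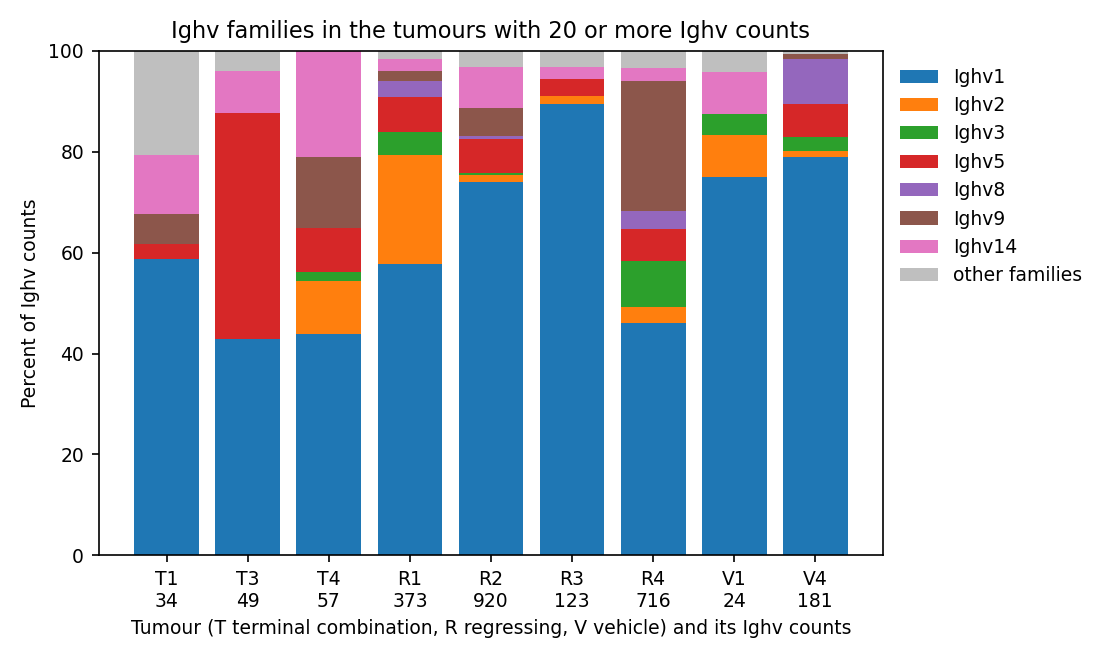
Share of Ighv counts by family in the 9 tumours with 20 or more Ighv counts, with the number of counts under each bar. Ighv1 runs between 42.9% (terminal combination replicate 3) and 89.4% (regressing replicate 3), and single families stand out in single tumours, such as Ighv5 in terminal combination replicate 3 (44.9%) and Ighv9 in regressing replicate 4 (25.8%).

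Position along the locus was described by splitting the members in order into 21 nearest the constant regions (proximal), 21 in the middle and 22 farthest away (distal). The proximal share was 41.2%, 53.1% and 54.4% in terminal combination replicates 1, 3 and 4, 32.98%, 21.6%, 7.3% and 39.5% in regressing replicates 1 to 4 and 16.7% and 9.4% in vehicle replicates 1 and 4. The 3 terminal combination values, on 34, 49 and 57 counts, stood above those of the other tumours with 20 or more counts. The distal share was 50%, 14.3% and 28.1% in terminal combination replicates 1, 3 and 4, 31.9%, 37.8%, 44.7% and 35.9% in regressing replicates 1 to 4 and 33.3% and 30.9% in vehicle replicates 1 and 4, and the terminal combination tumours held both the highest and the lowest value. Ighv1 lies in the middle and distal parts and Ighv2, Ighv5 and Ighv14 in the proximal part, so these shares and the family shares are not independent.

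Usage was compared between tumours with 50 or more counts by the Morisita-Horn index, which is 0 with no shared use and 1 with equal use. Terminal combination replicate 4 had 0.0554 to 0.369 with the regressing tumours and 0.0524 with vehicle replicate 4. The 6 pairs of regressing tumours had 0.297 to 0.720, the highest being replicates 2 and 3 and the lowest replicates 3 and 4. The regressing tumours had 0.229 to 0.427 with vehicle replicate 4, a range that overlaps the one among regressing tumours. The value of 0.369, between terminal combination replicate 4 and regressing replicate 4, also lay within the range among regressing tumours. The other values of that terminal combination tumour with regressing tumours, 0.0554 to 0.251, lay below it. Regressing replicates 2 and 4 had 49 members in common, which were 92.5% of those in replicate 2 and 81.7% of those in replicate 4. All 23 members of regressing replicate 3 were also seen in replicate 4, the pair with the lowest index. Replicate 4 used 60 of the 64 members and replicate 2 used 53. Wide sharing with them follows from these numbers alone, so nothing is read from the members in common.

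The constant regions, to which V segments are joined, were also most abundant in the regressing tumours. The 8 heavy chain constant genes summed to 54.1, 41.4, 28.9 and 65.0 CPM in terminal combination tumours, 438, 736, 103 and 902 CPM in regressing tumours and 98.0, 34.8, 54.3 and 152 CPM in vehicle tumours. Ighm, the constant region of IgM, was the most counted of them in all 12 tumours. Of the 8, Ighe had no count anywhere and 6 were tested, and edgeR called none in any contrast. DESeq2 called 2 of them higher in regressing than in vehicle and 2 lower in terminal combination than in regressing tumours, and none between terminal combination and vehicle. Ighm, called by DESeq2 in both, had an edgeR log2 difference of 2.71 (SE 0.637, adjusted p = 0.236) in regressing tumours against vehicle and -3.57 (SE 0.662, adjusted p = 0.481) in terminal combination against regressing tumours.

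The ratio of variable to constant counts was not the same in all tumours. Ighv counts per 100 heavy chain constant counts were 3.22, 0.144, 8.29 and 5 in terminal combination replicates 1 to 4, 5.42, 7.25, 5.29 and 6.12 in regressing replicates 1 to 4 and 1.05, 0.616, 1.12 and 6.95 in vehicle replicates 1 to 4. The regressing tumours lay close together, at 6.02 ± 0.897 (SD, n = 4), whereas terminal combination tumours averaged 4.16 ± 3.41 and vehicle tumours 2.43 ± 3.02. In terminal combination replicate 2 and vehicle replicate 2, Ighm had 593 and 444 counts beside 1 and 3 Ighv counts. The genes differ in length, so the ratio is compared between tumours and not read as a proportion of molecules.

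The same ratio for the kappa light chain varied less. Igkv counts per 100 counts of the kappa constant gene Igkc were 31.3, 11.6, 35.5 and 31.4 in terminal combination tumours, 27.6, 35.4, 37.2 and 29.4 in regressing tumours and 23.5, 15.4, 38.3 and 39.1 in vehicle tumours. Vehicle replicate 3 had a heavy chain ratio of 1.12 and the second highest kappa ratio, which rests on 47 Igkc counts. The kappa ratio was low in terminal combination replicate 2 and vehicle replicate 2, the 2 tumours with the fewest Ighv counts.

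**Figure D5:**
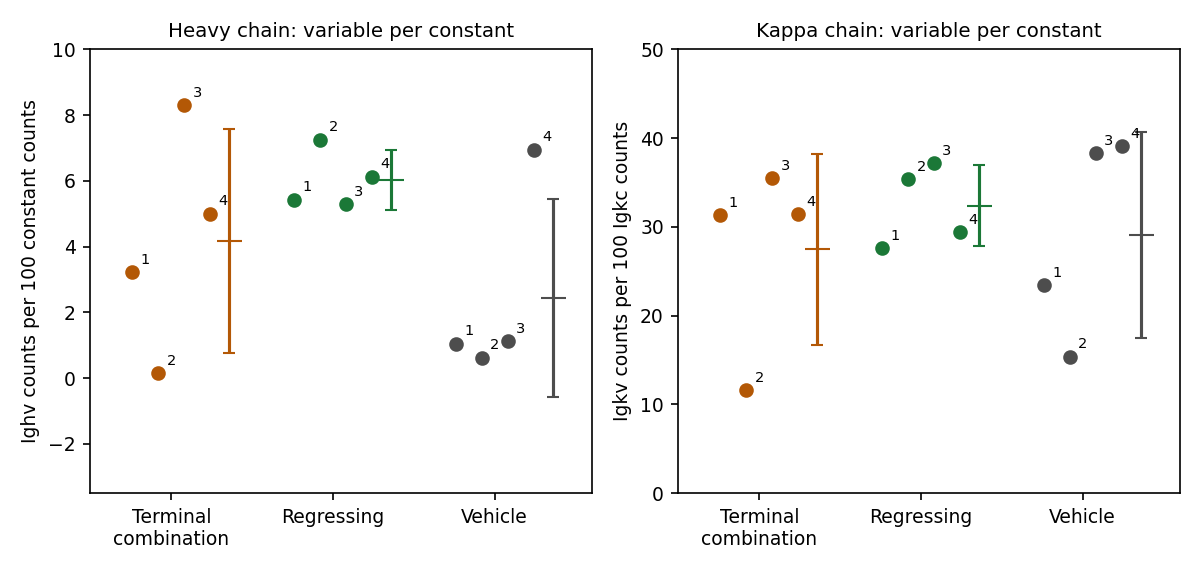
Ighv counts per 100 heavy chain constant counts (left) and Igkv counts per 100 Igkc counts (right) in each tumour, with the replicate number beside its point and the group mean and SD beside the points. The 4 regressing tumours lie between 5.29 and 7.25 in the left panel, while vehicle replicates 1 to 3 lie at 1.05, 0.616 and 1.12 and replicate 4 at 6.95.

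Ighg1 was counted most in the tumour led by Ighv5-9. Ighg1, an IgG constant region, had 23, 3, 135 and 24 counts in terminal combination replicates 1 to 4, 79, 51, 30 and 74 counts in regressing replicates 1 to 4 and 7, 0, 3 and 1 counts in vehicle replicates 1 to 4. Terminal combination replicate 3, in which Ighv5-9 took 44.9% of Ighv counts, thus also had the highest Ighg1 count of the 12. Its edgeR log2 differences were 4.03 (SE 1.07, adjusted p = 0.819) for terminal combination against vehicle and 4.70 (SE 1.10, adjusted p = 0.236) for regressing against vehicle. DESeq2 called the second (4.82, adjusted p = 0.000987) and not the first (4.12, adjusted p = 0.061). Ighg2c, another IgG constant region, had 15, 80, 12 and 39 counts in terminal combination tumours, 430, 700, 291 and 1078 counts in regressing tumours and 28, 16, 22 and 387 counts in vehicle tumours, where replicate 4 again overlapped the regressing tumours. Counts do not show which V segment was joined to which constant region.

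Jchain, which links secreted IgM and IgA and marks plasma cells, stood at 0.665, 0.477, 1.03 and 3.88 CPM in terminal combination tumours, 43.1, 109, 8.52 and 53.5 CPM in regressing tumours and 2.05, 1.07, 0.305 and 9.69 CPM in vehicle tumours. As for the summed Ighv level, regressing replicate 3 was the lowest of its group and vehicle replicate 4 the highest of its own. The 10 plasma cell markers, which include genes that other secretory cells express, summed to 406 to 509 CPM in terminal combination, 325 to 584 CPM in regressing tumours and 426 to 634 CPM in vehicle tumours, with none at 0 in all tumours. Of these 10, 9 were tested and edgeR called none in any contrast, with 7 of 9 positive and a median log2 difference of 0.25 for regressing against vehicle. DESeq2 called 3, namely Jchain, Mzb1 and Pou2af1, higher in regressing than in vehicle tumours and the same 3 lower in terminal combination than in regressing tumours. Others did not share that direction, since the edgeR log2 difference for regressing against vehicle was -1.17 (SE 0.409, adjusted p = 0.285) for Sdc1, a syndecan on plasma cells and epithelia, and -2.35 (SE 0.974, adjusted p = 0.352) for Prdm1, a transcription factor of plasma cell differentiation. Xbp1, Derl3 and Fkbp11, which serve secretion, had 0.25, 0.00 and 0.16. The Prdm1 difference rests largely on vehicle replicate 2, at 94.0 CPM, and on replicate 3, at 19.2 CPM. Vehicle replicates 1 and 4, at 6.42 and 4.03 CPM, lay within the regressing range of 4.01 to 7.95 CPM. The 10 B cell markers summed to 8.04 to 20.5 CPM in terminal combination tumours, 10.6 to 293 CPM in regressing tumours and 14.0 to 24.9 CPM in vehicle tumours, and the value of 293 was regressing replicate 4 alone.

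Regressing replicate 4, the tumour with the most members in use, stood apart in B cell genes. Ighd, the constant region of the IgD of mature naive B cells, had 857 counts there and 0 to 30 counts in every other tumour. T cell markers (8 of 8 found) reached 445 CPM in that tumour, within ranges of 19.9 to 85.3 CPM in terminal combination, 35.2 to 445 CPM in regressing tumours and 37.5 to 79.4 CPM in vehicle tumours. Without it the difference in summed Ighv level was 3.37 in regressing tumours against vehicle and -3.37 in terminal combination against regressing tumours, and the number of members used still differed by 26.2 and -29.7.

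The summed adipocyte and skeletal muscle markers were also highest in a regressing tumour. Adipocyte genes (5 of 5 found) summed to 8.31 to 105 CPM in terminal combination tumours, 63.5 to 287 CPM in regressing tumours and 3.66 to 27.1 CPM in vehicle tumours, and skeletal muscle genes (5 of 5 found) to 2278 to 29746 CPM in terminal combination, 3388 to 47246 CPM in regressing and 467 to 7308 CPM in vehicle tumours. No gene of either list was called by edgeR, while DESeq2 called 5 adipocyte and 4 muscle genes higher in regressing than in vehicle tumours. The part of the B cell, T cell, adipocyte and muscle content in the Ighv results was not tested. Genes that act on V segments gave few counts: the V(D)J recombination and pre-B cell list summed to 0.196 to 1.08 CPM in terminal combination, 0.311 to 2.08 CPM in regressing tumours and 0.305 to 0.817 CPM in vehicle tumours.

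At the count minimum the choice of members turned on single reads. Ighv2-5 and Ighv10-1 had exactly 5 counts and were members, while 7 genes with exactly 4 counts, among them Ighv5-9-1, Ighv1-31 and Ighv11-2, were not. The 26 Ighv genes under the minimum held 66 counts together. Ighv11-2 and Ighv12-3, known from antibodies to phosphatidylcholine made by B-1 cells, and Ighv7-1, known from antibodies to phosphorylcholine, were looked up by name. Ighv11-2 had 2, 1 and 1 counts in regressing replicates 2, 3 and 4 and none elsewhere, Ighv12-3 had 2 counts in vehicle replicate 2 alone, and Ighv7-1 had none in any library, so these V genes were at or under the 3 counts that a count of 0 allows in every library.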

How the data were processed

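The data were raw counts, 1 whole number per Ensembl gene in each of 12 libraries, as deposited by the authors. Per the labels' protocols, the RNeasy mini kit gave the RNA and the TruSeq Stranded mRNA kit the libraries. The submitters' processing notes name HISAT2 2.2.1, Salmon, DESeq2 1.24.0, mm10 and GRCm38.p6. The counter, its strand setting, its handling of reads with several matches and its annotation release are not given in the sources used here, so reads of near-identical V genes may have been split, dropped or assigned to 1 of them.

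Identifiers were matched to GENCODE M21 (54495 of 54532 found). The members and the gene lists were chosen with earlier results of these data known. After filterByExpr (count 10, total 15) and TMM scaling, edgeR's quasi-likelihood test was run in 1 fit of all 12 libraries (R 4.3.3, edgeR 4.0.16, limma 3.58.1), adjusted by Benjamini-Hochberg over all genes of a contrast at 0.05. DESeq2 1.42.0 was an alternative. Standard errors were taken from the log2 difference and its F statistic. Repertoire measures gave 1 value per tumour and were compared by exact two-sided permutation (70 arrangements of 4 against 4, smallest p 0.0286), adjusted over 18 tests. Expected numbers of genes at 20, 50 or 100 counts came from the hypergeometric formula. Tests and similarities of composition used the 6 tumours with 50 or more Ighv counts, and shares are also given for the 9 with 20 or more. Scripts used Python 3.11.15, numpy 2.4.6, pandas 2.3.3, scipy 1.17.1 and matplotlib 3.10.9. The edgeR fit was tested on simulated counts. Formulas for thinning, the Simpson index, permutation, Benjamini-Hochberg adjustment and the Morisita-Horn index were tested on small made-up examples. Other steps were not tested in this way. Labels of treatment and harvest gave the groups, and replicates are numbered in accession order. Other settings were another normalization (RLE), no filter, another offset, other thinning depths, all Ighv genes, the title ending FFT as a term or left out, and each library left out.

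The genes named were the most counted member of each tumour, the 10 with the highest summed counts, the 5 with the smallest edgeR p in each contrast (of which 2 were tested), members with 50 or more counts of which 90% or more lay in 1 library, examples at the count minimum, 3 V genes picked by name, and genes of the lists. Ighv1-43, Ighv9-1, Ighv9-2, Ighv1-76 and the members whose groups did not overlap were named after their values were seen. Promoters of V genes were not analysed here. Some genes of the lists are not reported here.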

Additional observations from a re-analysis of the deposited data

Results flagged for a closer look

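In a group of 4 tumours, 1 value far from the other 3 marked the following results. Only genes picked by the naming rules and some summary values are covered. Members such as Ighv1-43 and Ighv9-1, counted in 1 regressing tumour alone, are therefore not listed. Such a mark falls on about 1 in 20 groups by chance if values are normally distributed, and many values were looked at. Sparse counts are marked more often, since a gene with no count in 3 of 4 tumours meets the mark by itself, as Ighv5-9 does below. Regressing replicate 4 had 857 Ighd counts and 11.4 CPM of Ighv9-3. Regressing replicate 2 had 4.70 CPM of Ighv1-26 and 3.14 CPM of Ighv14-4, and regressing replicate 1 had 4.71 CPM of Ighv2-9. Each of these stood far above the other 3 regressing tumours.

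Among terminal combination tumours, replicate 4 was marked for Ighv1-64 at 0.628 CPM and Ighv14-4 at 0.685 CPM, and replicate 3 for Ighv5-9 at 1.08 CPM, where the other 3 tumours had no Ighv5-9 count. Among vehicle tumours, replicate 4 was marked for the summed Ighv level at 10.6 CPM, for 6.95 Ighv counts per 100 heavy chain constant counts, for Ighv1-15 and Ighv1-26 at 2.51 CPM each and for Ighv1-53 at 0.759 CPM. All 5 marks of the vehicle group fell on this 1 tumour.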

How the results depend on the processing

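The higher Ighv level and the larger number of members in regressing tumours kept their direction under every alternative run, with leave-one-out log2 differences of 3.27 to 4.59 against vehicle and -4.44 to -3.15 for terminal combination against regressing, and differences in members used of 26.2 to 38.5 and -42 to -29.7. None passed the adjusted threshold in the first place, which the permutation tests could not have done with these numbers of tumours. The near-zero difference in level between terminal combination and vehicle (0.01) changed sign to -0.025 with CPM by total count, -0.032 with an offset of 0.1 CPM, -0.048 without the most counted member of each tumour, -0.12 with all Ighv genes and -0.94 without the libraries with titles ending FFT, and ran between -0.47 and 0.85 when each library was left out. The members used in that contrast ran between -7 and 1.33. In edgeR the summed members ran between -1.13 and 1.54, Ighv1-26 between -4.74 and 0.23 and Ighv1-53 between -2.35 and 1.29 in that contrast, each positive only without vehicle replicate 4.

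The families seen in thinned counts for terminal combination against regressing (-0.406) became 0.245 at 20 counts and ran between -0.959 and 0.0783. With all Ighv genes, which let terminal combination replicate 3 pass 50 counts, the difference in leading share between terminal combination and vehicle became 9.03 (from -2.70) and that in families -0.0607 (from 0.863). DESeq2 called 14, 483 and 51 genes for terminal combination against vehicle, regressing against vehicle and terminal combination against regressing, where edgeR called 0, and 1 member, Ighv1-53, in each of the last 2 (4.62, adjusted p = 0.0219, and -5.83, adjusted p = 0.0145). As Ighv1-53 was tested only because of its counts in the regressing tumours, nothing is read from its calls. Leaving out libraries gave 0 to 1 edgeR calls for terminal combination against regressing, the 1 being Pcsk6 without terminal combination replicate 4. The causes of these changes were not tested. No paired analysis was possible because any pair of groups has at most 1 number in common in their titles, the labels do not say what those numbers mean, and the replicate numbers used here are in accession order. Depth limits composition, since 6 of 12 tumours had fewer than 50 Ighv counts.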
